A study of Capra hircus with 30 samples.

Results

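Genes that control apoptosis were followed in granulosa cells, which line the follicle and nourish the oocyte. The set names 9 genes, BCL2, BCL2L1, BCL2L11, BAX, CASP8, CASP9, FAS, XIAP and APAF1, and the members are the features whose NCBI goat gene number belongs to these symbols. The deposited table has 20125 features, and 8 of them are members. No feature carried the gene number of BCL2, which was not analysed here. The rule that picks them uses symbols and no expression value.

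Ovarian granulosa cells of the Ji'ning grey goat gave 30 total RNA libraries, divided evenly over 6 groups of 5. HLG, HMG and HSG are the large, medium and small follicles of the high fertility group, LLG, LMG and LSG are the same sizes in the low fertility group, and the labels name no agent or genotype. Libraries carry the numbers 5, 7, 8, 9 and 10 in each group, and values below are given in that order. In the methods of the study, each fertility class supplied follicles from a number of goats. The granulosa cells of each size were split into small samples, each of several cells. Which goats stand behind a library is not stated. The p-values below therefore measure the spread between these libraries, which may be technical. Ages of the goats are not given in the sources used here.

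Apoptosis of granulosa cells is the usual start of atresia, the loss of follicles that do not ovulate. The receptor route starts at FAS on the cell surface, which gathers adaptors that activate caspase 8. The mitochondrial route is set by the BCL2 family, in which BCL2 and BCL-XL hold the membrane closed, BIM and its relatives counter them, and BAX forms the pore. Cytochrome c then leaves the mitochondria and builds the apoptosome with APAF1 and caspase 9. Both routes end in effector caspases, which XIAP can block.

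FPKM are fragment numbers scaled by the length of the gene and the depth of the library, so they can be compared between genes. They summed to between 33639.9 and 82952 in a library, and between 301 and 9256 features were above 0. The median feature had a value above 0 in 5 of the 30 libraries, and 58 features had one in all of them. The 7 libraries with fewer than 2000 features above 0 were HLG-5, HLG-8, HMG-8, HSG-5, LLG-5, LLG-7 and LLG-10. Steps between low values were read as the FPKM that 1 fragment adds to a 1 kb gene. Only steps of 0.05 to 0.1 FPKM were accepted, so the range could not leave these limits. Such a step was found in 19 libraries, at 0.0576 to 0.0882 FPKM, and not in the other 11. A fragment adds less to a longer gene. In such sparse data a gene at 0 is only listed at 0, and fewer cells of a type and less RNA per cell cannot be told apart in a library of several cells. Defining granulosa genes were sparse as well. Of 8 such genes 7 were in the table, INHBA, a subunit of activin, was above 0 in 14 libraries, and FSHR, the receptor of follicle stimulating hormone, was above 0 in 1. Markers of other cells were in the table for 5 of 8 oocyte, 5 of 5 theca, 8 of 8 immune, 4 of 4 endothelial and 2 of 4 erythroid genes. They were above 0 in a median of 2, 7, 6, 5.5 and 3.5 libraries, in that order, against 4 for the granulosa genes. The most widely seen of them was the endothelial gene KDR, in 14 libraries, where its median was 0.07 FPKM. The other endothelial genes, PECAM1, CDH5 and VWF, were above 0 in 6, 5 and 4 libraries.

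FAS and XIAP were the apoptosis genes seen in the most libraries, and APAF1 the one seen in the fewest. FAS and XIAP were each above 0 in 24 libraries, and 0.755% of all features were above 0 in more. CASP8 was above 0 in 17 libraries, CASP9 in 12, BCL2L11 in 10, BCL2L1 in 7, BAX in 5 and APAF1 in 2. The median over the 8 genes was 11 libraries, against 5 over all features. Every feature of the table was above 0 in at least 1 library, so genes without a feature do not enter these medians. The genes were thus spread from among the most widely detected features to APAF1, with 74.3% of features above 0 in more libraries. Of the 240 values of 8 genes in 30 libraries, 101 were above 0 and 139 were listed at 0.

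**Figure D1:**
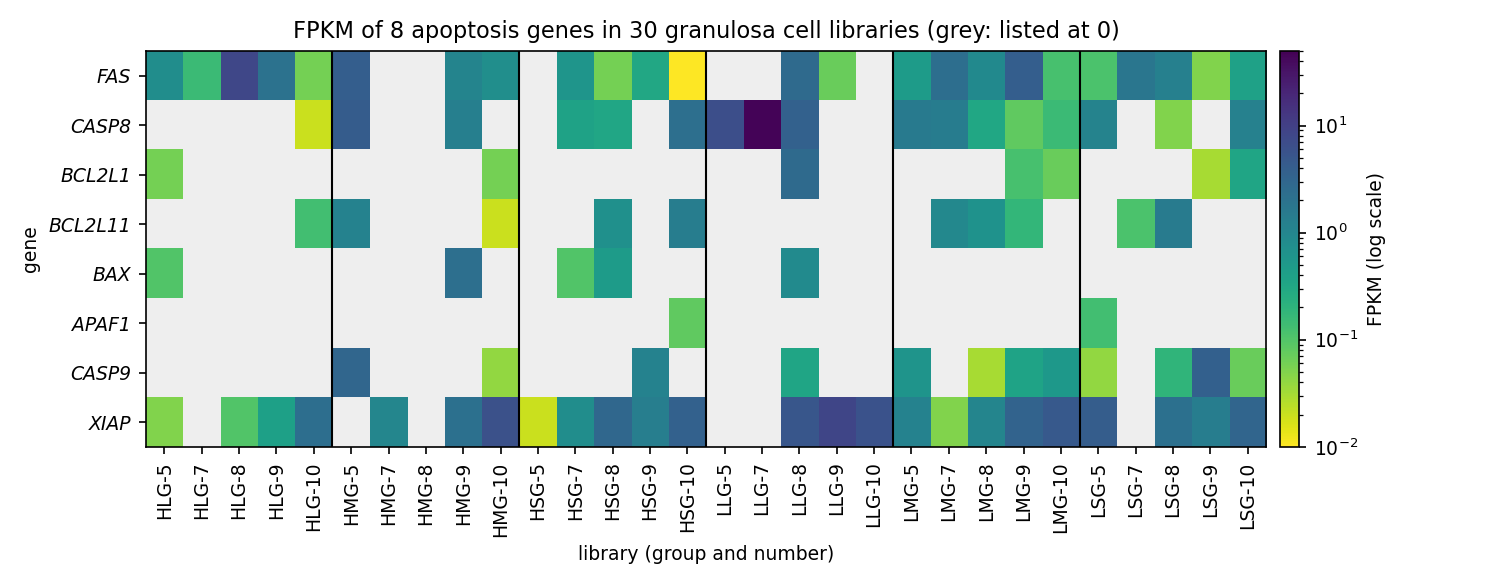
FPKM of the 8 genes (rows) in the 30 libraries (columns, black lines between groups) on a logarithmic colour scale, with grey for values listed at 0. The rows of FAS and XIAP are coloured in 24 libraries each, the row of APAF1 in 2, and the darkest cell is CASP8 in LLG-7 at 45.62 FPKM.

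The order of levels, as the mean of log2(FPKM + 1) over 30 libraries, was XIAP (1.23), CASP8 (0.744), FAS (0.737), CASP9 (0.266), BCL2L11 (0.221), BAX (0.114), BCL2L1 (0.0918) and APAF1 (0.00958). No neighbours in this order differed beyond the spread between libraries in a paired permutation test with 100000 resamples, adjusted over the 7 pairs. The pairs were taken from the order of these same values, and genes farther apart in it were not tested. The nearest to the threshold were FAS and CASP9, with FAS higher in 20 libraries and CASP9 higher in 4 (permutation p = 0.0103, adjusted 0.0721). CASP8 and FAS had nearly equal means, but FAS was the higher of the pair in 15 libraries and CASP8 in 11, so the mean of CASP8 was carried by fewer libraries.

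FAS, the death receptor, was listed in every library of HLG, LMG and LSG and in 2 of 5 in LLG. In HLG it stood at 0.78, 0.15, 8.08, 2.01 and 0.06 FPKM, and in LLG at 0, 0, 2.65, 0.07 and 0 FPKM. The highest value of all, 8.08 FPKM, was in HLG-8, and the ranges of both groups of large follicles overlapped. In HMG the values were 3.87, 0, 0, 1.08 and 0.75 FPKM, and in LMG 0.47, 2.29, 0.87, 3.96 and 0.12 FPKM. The medium follicles had medians of 0.75 and 0.87 FPKM and overlapped almost fully. In HSG FAS stood at 0, 0.59, 0.06, 0.30 and 0.01 FPKM, and in LSG at 0.11, 1.79, 1.21, 0.05 and 0.38 FPKM. No library of HSG was above 0.59 FPKM, and 3 of the 5 libraries of LSG were below that as well.

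CASP8, the initiator caspase of the receptor route, was above 0 in 1 library of HLG and had its highest values in LLG. In HLG the values were 0, 0, 0, 0 and 0.02 FPKM, and in LLG 6.41, 45.62, 3.54, 0 and 0 FPKM. Libraries 5, 7 and 8 of LLG lay above every library of HLG, while the other two were at 0. In HMG CASP8 stood at 4.14, 0, 0, 1.25 and 0 FPKM, and in LMG at 1.53, 1.38, 0.31, 0.08 and 0.15 FPKM. All 5 libraries of LMG were above 0, but the highest value was in HMG. In HSG it stood at 0, 0.37, 0.32, 0 and 2.26 FPKM, and in LSG at 1.12, 0, 0.05, 0 and 1.18 FPKM. The small follicles overlapped throughout, with 3 of 5 libraries above 0 in both groups.

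The CASP8 values of LLG-5 and LLG-7 came from libraries with 875 and 301 features above 0. In LLG-7, the value of 45.62 FPKM ranked 60 among the 301 features, and in LLG-5 the value of 6.41 FPKM ranked 294 among 875. Without the features above 0 in all libraries, the ranks were 24 of 243 in LLG-7 and 245 of 817 in LLG-5. Neither library held any other of the 8 genes above 0. Each of the 8 immune cell markers was at 0 in both. Of 7 granulosa genes, 1 was above 0 in LLG-5 and 0 in LLG-7. Zeros in libraries this sparse therefore do not show which cells were present. The summed level of the immune markers ran from 0 to 2.43 FPKM in HLG and from 0 to 2.79 FPKM in LLG. The part of the small number of features in these CASP8 values was not tested.

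Receptor and caspase were seen together in 15 libraries, FAS without CASP8 in 9, CASP8 without FAS in 2 and neither in 4. The 2 libraries with CASP8 alone were LLG-5 and LLG-7. Where both were above 0, CASP8 was the higher in 9 libraries and FAS in 6.

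BCL2L1, which encodes the protective protein BCL-XL, was above 0 in 7 libraries and at 0 in the whole of HSG. It stood at 0.06 FPKM in HLG-5 and in HMG-10, at 2.66 in LLG-8, at 0.12 in LMG-9, at 0.07 in LMG-10, at 0.03 in LSG-9 and at 0.33 in LSG-10. All but the value in LLG-8 were under 0.5 FPKM, so the gene was below the filter of the fold change test.

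BCL2L11, which encodes BIM, was at 0 in the whole of LLG and above 0 in 1 to 3 libraries of every other group. In HLG it was above 0 only in HLG-10, at 0.13 FPKM. In HMG it stood at 1.14 in library 5 and 0.02 in library 10, and in HSG at 0.70 in library 8 and 1.34 in library 10. Over the large follicles this left 1 of 10 libraries above 0. In LMG it stood at 0.93, 0.64 and 0.18 FPKM in libraries 7, 8 and 9, and in LSG at 0.11 and 1.44 FPKM in libraries 7 and 8. High and low fertility had the same number, 5 of 15 libraries each.

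BAX, which forms the pore, was above 0 in 5 libraries, 4 of high and 1 of low fertility. It stood at 0.10 FPKM in HLG-5, 2.23 in HMG-9, 0.10 in HSG-7, 0.47 in HSG-8 and 0.85 in LLG-8. LMG and LSG had no library above 0, although these were the groups in which the most values of the 8 genes were above 0. BAX and BCL2L1, the pore former and its inhibitor, were both above 0 in only 2 libraries, HLG-5 and LLG-8. A ratio of BAX to BCL2L1 could thus be formed in 2 of 30 libraries, at 1.67 in HLG-5 and 0.32 in LLG-8.

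APAF1, the scaffold of the apoptosome, was above 0 at 0.08 FPKM in HSG-10 and at 0.13 FPKM in LSG-5. No large or medium follicle library had a value above 0. CASP9, the caspase that the scaffold activates, was at 0 in the whole of HLG. It stood at 2.97 and 0.04 FPKM in HMG-5 and HMG-10, at 1.14 in HSG-9 and at 0.34 in LLG-8. High fertility thus gave 3 libraries above 0 in all. In LMG the values were 0.60, 0, 0.03, 0.36 and 0.54 FPKM, and in LSG 0.04, 0, 0.19, 3.67 and 0.07 FPKM. The medium and small follicles of low fertility therefore had CASP9 above 0 in 4 of 5 libraries each, against 2 of 5 and 1 of 5 for the same sizes at high fertility. APAF1 and CASP9 were together above 0 in 1 library, LSG-5.

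XIAP, the caspase inhibitor, had the highest mean of log2(FPKM + 1) and was above 0 in at least 3 libraries of every group. In HLG it stood at 0.05, 0, 0.10, 0.39 and 2.33 FPKM, and in LLG at 0, 0, 5.05, 8.43 and 5.85 FPKM. Libraries 8, 9 and 10 of LLG were above all of HLG, and the other two were at 0. In HMG it stood at 0, 0.99, 0, 2.15 and 6.14 FPKM, and in LMG at 1.13, 0.05, 1.02, 3.36 and 4.62 FPKM. The ranges of the medium follicles overlapped. In HSG it stood at 0.02, 0.77, 2.86, 1.33 and 3.56 FPKM, and in LSG at 4.01, 0, 2.18, 1.37 and 3.06 FPKM. These also overlapped, with medians of 1.33 and 2.18 FPKM.

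Set against the caspases in the same library, XIAP was mostly the higher. Of 11 libraries with XIAP and CASP9 above 0, XIAP was higher in 10. Of 14 libraries with XIAP and CASP8, it was higher in 12, and of 21 with XIAP and FAS, in 16. In LLG the libraries with the highest CASP8 and those with the highest XIAP were different ones except for LLG-8, which held both.

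**Figure D2:**
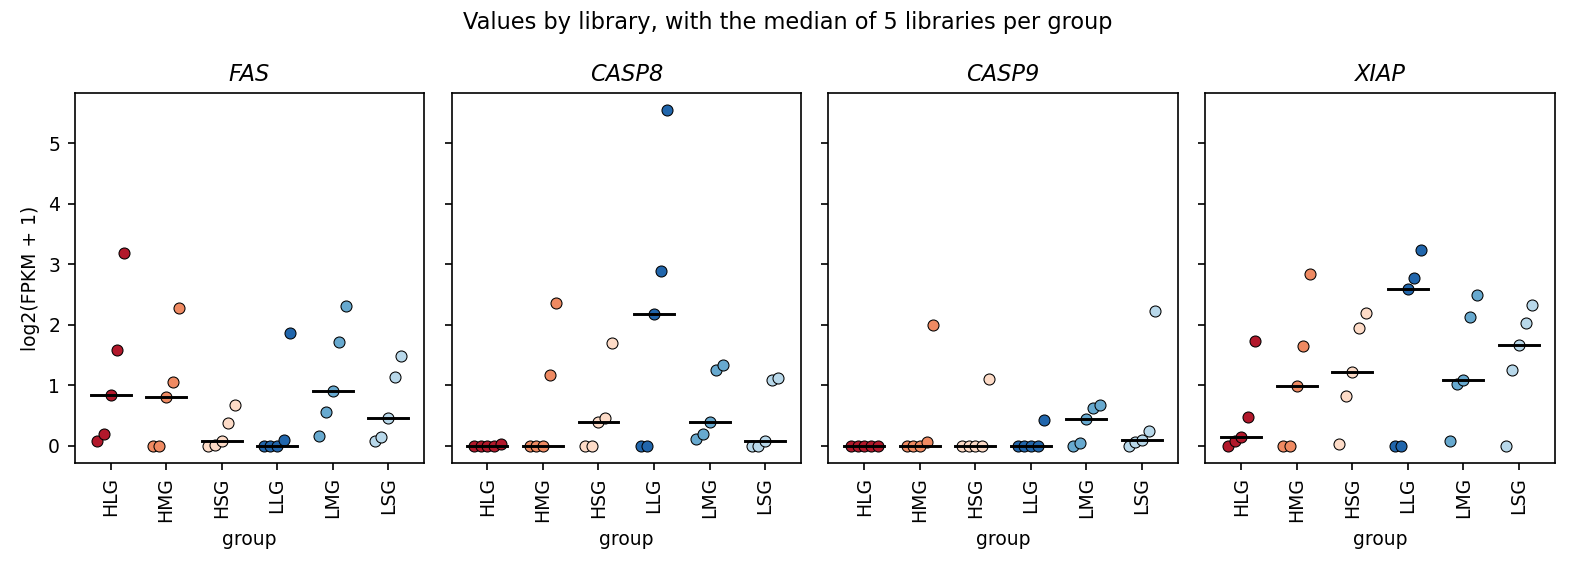
Levels of FAS, CASP8, CASP9 and XIAP as log2(FPKM + 1) in each library (points, sorted within a group) with the median of each group of 5 libraries (bar). CASP8 lies at or near 0 in all of HLG and reaches its highest points in LLG, while points of most other groups overlap.

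The number of the 8 genes above 0 differed between groups together with the number of all features above 0. LMG had 24 of 40 values above 0 (60%) and LLG had 11 of 40 (27.5%). HLG had 13, HMG 14, HSG 18 and LSG 21 of 40. Over all 20125 features the share was 38.6% in LMG and 10.4% in LLG, which were the highest and lowest groups there too. The pooled share of the 8 genes was above that of all features in each of the 6 groups, but the genes differed in this. FAS and XIAP were above 0 in 24 libraries each, BAX in 5 and APAF1 in 2, with the others between 7 and 17. The median over all features was 5 libraries, and over 36 other apoptosis genes it was 5.5. In HLG, FAS was above 0 in 5 of 5 libraries and XIAP in 4, and no other member in more than 1.

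By library, HMG-8 held none of the 8 genes, while LLG-8 and LMG-9 held 6 each. Over 30 libraries, which share depth and input, the number of these genes and the number of features above 0 had a Spearman correlation of 0.766 and a Pearson correlation of 0.795, given as a description. The 7 libraries with fewer than 2000 features held 10 of the 101 values above 0, and the other 23 held 91. FAS was above 0 in 22 of those 23 libraries and in 2 of the 7. CASP9, BCL2L11 and APAF1 were at 0 in all 7.

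**Figure D3:**
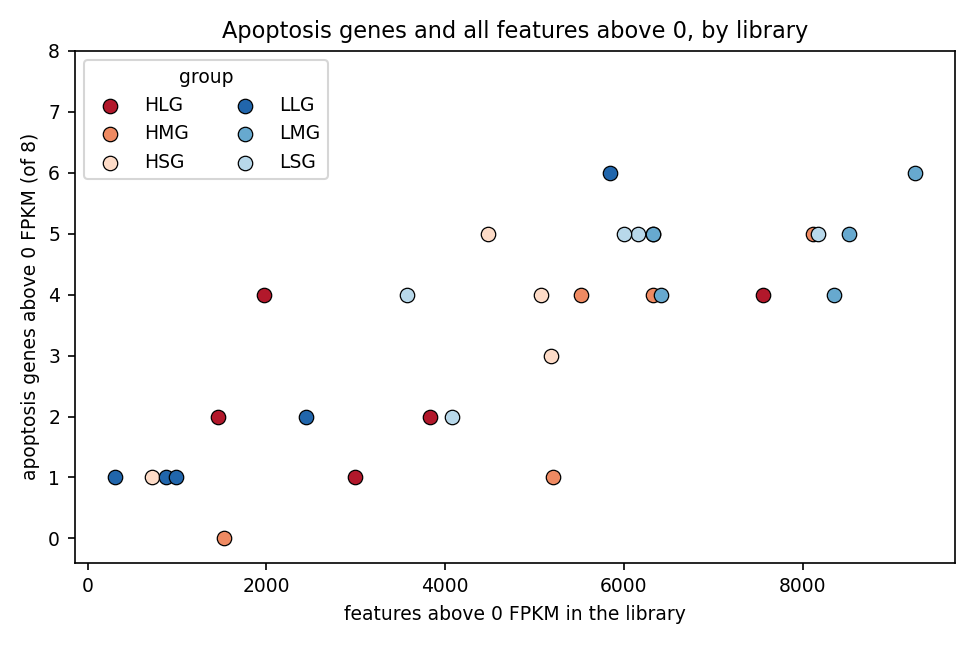
Number of the 8 apoptosis genes above 0 FPKM against the number of features above 0 FPKM in each library, coloured by group. Libraries run from 301 features with 1 gene (LLG-7) to 9256 features with 6 genes (LMG-9), and HMG-8 has 0 genes.

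The first comparison asked whether the genes were above 0 in more libraries of either fertility class or of a follicle size, by Fisher's exact test (two-sided) over all 20125 features with Benjamini-Hochberg adjustment. No gene of the 8 was called in any of 7 comparisons, against a background of 0% of features called in each. At an unadjusted p under 0.05 the count was also 0 of 8 in each comparison. The share of all features under that limit was 0.85% for fertility, 6.17% in large against medium, 1.66% in large against small and 0.979% in medium against small follicles, and 0.303% in large, 1.49% in medium and 0.626% in small follicles for fertility within a size. Shares this low leave a count of 0 among 8 genes without weight.

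CASP9 came nearest. It was above 0 in 3 of 15 high fertility and 9 of 15 low fertility libraries (Fisher's exact p = 0.0604, adjusted p = 1), and in 1 of 10 large and 6 of 10 medium follicle libraries (Fisher's exact p = 0.0573, adjusted p = 0.621). Among libraries with at least 2000 features above 0, the first became 3 of 11 against 9 of 12 (Fisher's exact p = 0.0391, adjusted p = 1) and the second 1 of 5 against 6 of 9 (Fisher's exact p = 0.266). Among libraries with at least 2000 features, 333 of 20023 features had an unadjusted p under 0.05 for fertility by Fisher's exact test. Large follicles had the most of the sparse libraries. Over all features, 10351 were above 0 in more low than high fertility libraries and 6029 in more high ones. For size, 14859 were above 0 in more medium than large follicle libraries and 1941 in more large ones. The part of these shifts in the values of CASP9 was not tested. For fertility over all libraries, the unadjusted Fisher's exact p of CASP9 lay between 0.0209 and 0.0604 when each library was left out in turn. Many of the values of CASP9 were low. Above 0.5 FPKM, CASP9 was found in 2 of 15 high and 3 of 15 low fertility libraries. At that limit it was found in 0 of 10 large and 3 of 10 medium follicle libraries. Neither comparison then had an unadjusted p under 0.05 by Fisher's exact test.

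CASP8 was above 0 in 6 of 15 high fertility and 11 of 15 low fertility libraries (Fisher's exact p = 0.139), and FAS and XIAP in 12 of 15 of both classes. BCL2L1 was above 0 in 2 and 5 of 15, and BAX in 4 and 1 of 15. Within sizes, the lowest p was 0.167 by Fisher's exact test, for FAS in HLG (5 of 5) against LLG (2 of 5) and for CASP8 in HMG (2 of 5) against LMG (5 of 5), with an adjusted p of 1 for both. With 5 libraries a group, the smallest p this test can give is 0.00794. After adjustment over 20125 features such a p is called only if very many features share it. The absence of calls within a size therefore has no weight.

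**Figure D4:**
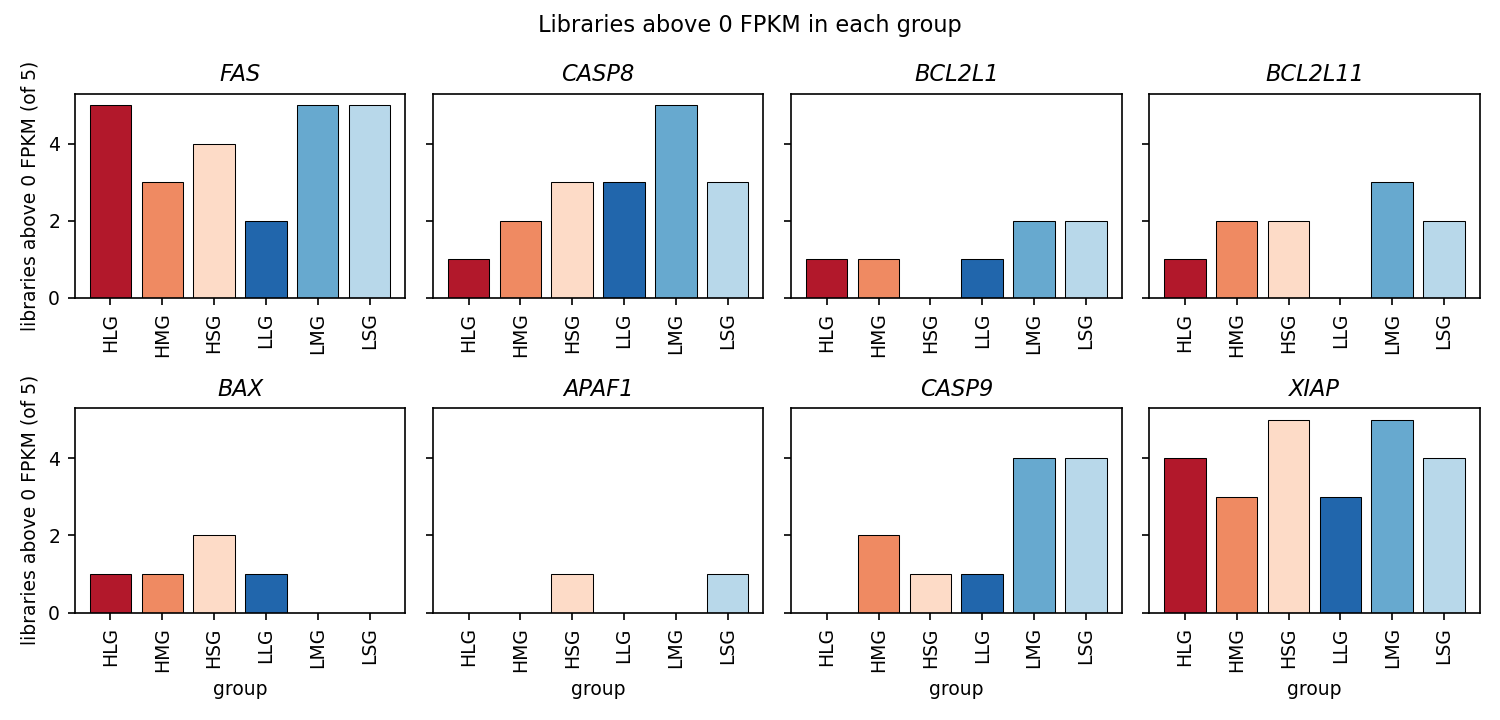
Number of libraries above 0 FPKM (of 5) in each group for the 8 genes. CASP9 is above 0 in 4 of 5 libraries of LMG and of LSG and in none of HLG, and BAX in none of LMG and LSG.

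The second comparison asked whether FPKM differed, by limma on log2(FPKM + 1). Features with more than 0.5 FPKM in at least 5 libraries were tested, which kept 6058 features and 5 of the 8 genes, FAS, CASP8, BCL2L11, CASP9 and XIAP. None of the 5 was called at an adjusted p under 0.05 in limma in any of 8 contrasts, and 1 of them, CASP8, had an unadjusted p under 0.05, in HLG against LLG and in the fertility by size interaction. The background was 0% of features called in all contrasts but medium against small follicles, where it was 0.0165% (1 feature). Of the 35 fold changes of the 5 genes, 24 were smaller than their standard error, and the other 11 are given next.

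Between the large follicles of both fertility classes, CASP8 had the fold change farthest from 0 among these genes. Its log2 fold change of HLG against LLG was -2.12 ± 0.67 (SE, 95% interval -3.43 to -0.81, limma unadjusted p = 0.00278, adjusted p = 0.976). It ranked 13 of 6058 features by p, and 291 features (4.8%) had an unadjusted p under 0.05 in this contrast. This p rests on a spread shared with the other groups, and with only HLG and LLG in the fit 0 of the 5 genes and 71 features had an unadjusted p under 0.05. Without LLG-7 the value was -1.26, and without the 4 libraries that the mapping list of the study does not name (HLG-5, HSG-5, LLG-5 and LLG-7) it was -0.72. Averaged over sizes the fold change of CASP8 was -0.67 ± 0.39, and -0.39 without LLG-7. The test of whether the fertility difference varied with size gave CASP8 an unadjusted p of 0.0383 in limma (adjusted p = 0.895), and 4.67% of features had an unadjusted p under 0.05 there.

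XIAP had a log2 fold change of HLG against LLG of -1.24 ± 0.72 (SE, limma adjusted p = 0.976). Among libraries with at least 2000 features above 0 the value was -2.18, with only HLG-7, HLG-9 and HLG-10 against LLG-8 and LLG-9. Over the alternatives other than leaving out 1 library, the value ran from -2.28 to -0.51. Averaged over sizes the fold change of XIAP was -0.57 ± 0.42. FAS had the opposite sign in the large follicles, 0.78 ± 0.57 (SE, limma adjusted p = 0.997). That value was 0.28 without HLG-8, and it changed sign, to -0.36, among the same few libraries with at least 2000 features. None of these differences was larger than the spread between libraries after adjustment.

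Between follicle sizes, BCL2L11 and CASP9 had the fold changes most often larger than their standard error. The log2 fold changes of large against medium follicles were -0.29 ± 0.19 for BCL2L11 and -0.34 ± 0.25 for CASP9 (SE), and those of large against small follicles -0.33 ± 0.19 and -0.33 ± 0.25. For BCL2L11 they were -0.18 without HMG-5 and -0.20 without LSG-8, in that order. The median over all 6058 features was -0.25 against medium and -0.19 against small follicles. CASP8 had a fold change of 0.58 ± 0.47 (SE) in large against small follicles, 0.15 without LLG-7, and -0.18 without the 4 libraries named above. FAS had 0.53 ± 0.40 (SE) in medium against small follicles, and 0.35 without HMG-5. The adjusted p-values of these size differences lay above the threshold in limma.

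**Figure D5:**
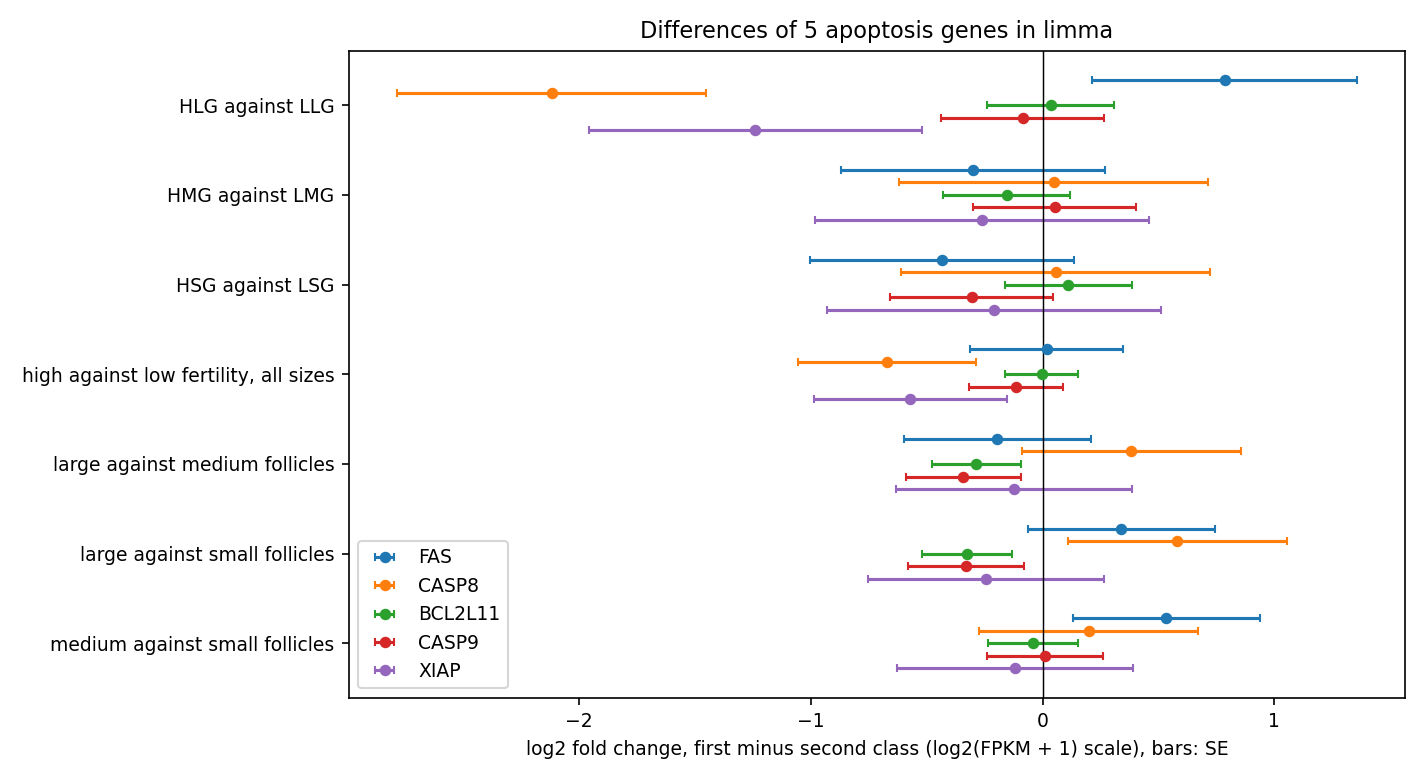
Log2 fold changes (points, first minus second class, log2(FPKM + 1) scale) with standard errors (bars) of the 5 tested genes in 7 contrasts. CASP8 in HLG against LLG lies farthest from 0, at -2.12 ± 0.67, and most other bars cross 0.

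The wider pathway was read from a list of 43 other apoptosis genes, of which 36 were in the table. They were above 0 in a median of 5.5 libraries, and none was called by Fisher's exact test or, for the 10 that passed the filter, by limma. At an unadjusted p under 0.05, Fisher's exact test had 4 of 36 in large against medium follicles, where 6.17% of all features were under that limit, 1 in medium against small (0.979%) and 1 in HMG against LMG (1.49%). Limma had 1 of 10 in HSG against LSG (6.39% of all features), in fertility averaged over sizes (3.95%) and in large against medium follicles (11.5%), 2 in medium against small follicles (5.13%), and 0 in HLG against LLG (4.8%), HMG against LMG (5.15%), large against small follicles (8.42%) and the interaction (4.67%). The IAP proteins other than XIAP were above 0 in a median of 13 libraries and the survival and stress genes in 11. The other caspases followed with 8.5, the other protective BCL2 proteins with 6, the released mitochondrial proteins with 6 (DIABLO, 7) and the death ligands, receptors and adaptors with 4.5 (FADD, 7). The caspase substrates (DFFB, 5) had a median of 3, the other BH3-only genes 2 (PMAIP1, 11), and BOK, the only other pore former in the table, was above 0 in 1. Genes of the list above 0 in at least 15 libraries included BIRC2 (19), BIRC3 (17), MCL1 (15) and FOXO3 (15). FOXO3 is a transcription factor that the survival kinase AKT inactivates, MCL1 protects the mitochondria, and BIRC2 and BIRC3 are relatives of XIAP.

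Large against medium follicles held the lowest p-values of this list by Fisher's exact test. BIRC3 was above 0 in 1 of 10 large and 10 of 10 medium follicle libraries (Fisher's exact p = 0.000119, adjusted p = 0.266), MCL1 in 1 and 9 of 10 (Fisher's exact p = 0.00109, adjusted p = 0.346) and BIRC2 in 3 and 9 of 10 (Fisher's exact p = 0.0198, adjusted p = 0.468). The single large follicle library with BIRC3 above 0, LLG-9, held its highest value, 15.17 FPKM. Among libraries with at least 2000 features above 0, BIRC3 and MCL1 were each above 0 in 1 of 5 large and 9 of 9 medium follicle libraries. Over all features, 14859 were above 0 in more medium than large follicle libraries and 1941 in more large ones, and the part of this shift in the values of BIRC3 and MCL1 was not tested. By limma, MCL1 had a log2 fold change of large against medium follicles of -0.76 ± 0.24 (SE, unadjusted p = 0.0024, adjusted p = 0.327).

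FOXO3 was above 0 in 0 of 5 libraries of HMG and 4 of 5 of LMG (Fisher's exact p = 0.0476, adjusted p = 1). BMF, another BH3-only gene, and FOXO1, a relative of FOXO3, were singled out after their values were seen. BMF was above 0 in 0 of 10 large and 6 of 10 medium follicle libraries (Fisher's exact p = 0.0108, adjusted p = 0.452), and FOXO1 in 7 of 10 medium and 1 of 10 small follicle libraries (Fisher's exact p = 0.0198, adjusted p = 1).

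The features most like the widely seen members were found by the Spearman correlation of log2(FPKM + 1) over 30 libraries among the 6058 features tested, as a description of values that share library and depth. For CASP8 they were CTSC (0.802), a lysosomal protease, and PRICKLE2 (0.639). CTSC was above 0 in 14 libraries, all of them with CASP8 above 0, and it too had its highest value, 37.65 FPKM, in LLG-7. For FAS they were PBRM1 (0.742), a subunit of a chromatin remodeller, and CLCN5 (0.734), a chloride transporter. For XIAP they were RFK (0.686), the riboflavin kinase, and PITPNA (0.669), a phosphatidylinositol transfer protein.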

How the data were processed

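The authors deposited FPKM with 2 decimals for 20125 features in 30 libraries. Per the study's methods, ribosomal RNA was removed, unique alignments were kept, duplicates were removed with picard, and FPKM came from Cufflinks. The aligner and genome build are not given in the sources used here, so no coordinates are printed. Symbols came from the RefSeq gene table of ARS1.2, in which 17945 of 17946 NCBI numbers had an entry. Read totals were not used here.

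The members and lists were chosen with earlier results of these data known. Groups follow the labels. Features above 0.5 FPKM in at least 5 libraries were tested with limma 3.58.1 (R 4.3.3) on log2(FPKM + 1), a scale that understates changes of low genes, with 6 group means and a robust, trended prior. Libraries above 0 were compared by Fisher's exact test (Python 3.11.15, scipy 1.17.1). All tests were two-sided, with Benjamini-Hochberg adjustment over all features tested and a threshold of 0.05. Limma and Fisher's exact test were also run on values shuffled within each feature, with known changes put in. Shuffling removes the differences between libraries in features above 0, so those runs cannot show how the tests behave on these libraries. All 8 members in the table were named. Other apoptosis genes were named when called, when above 0 in at least 15 libraries, or when above 0 in the most libraries of their class. BMF and FOXO1 were named after their values were seen. The 2 features most correlated with each member above 0 in 15 or more libraries were named as well. Some genes that these rules name are not reported here. Alternatives were pseudocounts of 0.1 and 5, other filters, a replicate block, a covariate for features above 0, sample weights, quantile normalization and subsets of libraries. The limma fit on libraries with at least 2000 features and the fragment steps, read from 789 genes spanning 900 to 1000 bp, were chosen after the values were seen. The steps were not scaled to the members' lengths, so fragments behind a member's value are unknown.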

Additional observations from a re-analysis of the deposited data

Results flagged for a closer look

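In 24 of 48 sets of 5 libraries (8 genes in 6 groups), the gap between the highest library and the next exceeded 0.71 of the range, the 95% value of Dixon's test. Dixon's test is made for normally spread values, and these values, many of them 0, are not spread so. The number of sets therefore has no chance level here. In 12 of the 24 sets the other 4 libraries were at 0, which makes the gap the whole range, and 9 sets were at 0 throughout. FAS stood apart in HLG-8 at 8.08 FPKM, in HMG-5 at 3.87 and in LLG-8 at 2.65. CASP8 stood apart in LLG-7 at 45.62 FPKM, in HSG-10 at 2.26 and in HLG-10 at 0.02. BCL2L1 did so in LLG-8 at 2.66 FPKM, in LSG-10 at 0.33, and in HLG-5 and HMG-10 at 0.06 each. BCL2L11 did so in LSG-8 at 1.44 FPKM, in HMG-5 at 1.14 and in HLG-10 at 0.13. BAX did so in HMG-9 at 2.23 FPKM, in LLG-8 at 0.85, in HSG-8 at 0.47 and in HLG-5 at 0.10. CASP9 did so in LSG-9 at 3.67 FPKM, in HMG-5 at 2.97, in HSG-9 at 1.14 and in LLG-8 at 0.34. APAF1 did so in LSG-5 at 0.13 FPKM and in HSG-10 at 0.08, and XIAP in HLG-10 at 2.33 FPKM.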

How the results depend on the processing

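The count of members called was 0 in all 561 alternative counts. Over all features most alternatives also called 0. The most was 12 of 6058, by limma in large against medium follicles with sample weights. Counts of 0 among so few members are therefore without weight. The lowest adjusted p of a member in limma over the alternatives to the fold changes given above was 0.243. Of 429 alternative values of the 11 fold changes larger than their SE, 427 kept their direction. Many of them could not change it. Leaving out a library of a group outside the contrast returns the same fold change, as do the fits without a filter and with the replicate block. The tally therefore has little weight. The value of FAS in HLG against LLG turned to -0.36 among libraries with at least 2000 features, and that of CASP8 in large against small follicles to -0.18 without the 4 libraries not in the mapping list, and the cause was not tested. With the replicate block the count called was 0 in each contrast, for the members and for all features. Library numbers did not pair the libraries: residuals of 75 same-numbered pairs correlated at -0.0335 to 0.124, with 1 above 0.1, and 7 of 30 libraries correlated best with their own number. Leaving out 1 library at a time, CASP8 in HLG against LLG ranged from -2.65 to -1.26, XIAP from -1.67 to -0.86 and FAS from 0.28 to 1.15. An FPKM of 0 gives no upper limit here, since read totals were not used.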
